A study of Mus musculus with 48 samples.

Results

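Ribosome-containing pellets of cortical synaptosomes were compared with those of the total cortical homogenate in 4 old mice, and the comparison was described across all genes. Mice were male wild-type C57BL/6JRj animals of 18 months by their labels (18 or 19 months in the methods). From the cortex of each mouse a total homogenate (TH) and a synaptosome fraction (SYN) were made, and from both the RNA that sedimented through a sucrose cushion (SC) was sequenced next to the unfractionated input RNA. The members are the 8 SC libraries of mice 195, 196, 197 and 198, out of 48 libraries in the series, chosen by column label as SYN and TH samples of 1 animal each, so that every comparison below was made within mice. The other libraries used here are SYN and TH, SC and input, from male mice of the same strain at 3 weeks (3w) and at 5 months (5m, given as 6 months in part of the labels), with 4 mice per age, and the 8 input libraries of the 18m mice. No gene was altered and no treatment was given in any group.

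Synaptosomes are nerve terminals that pinch off and reseal when brain tissue is homogenised, often with a piece of the postsynaptic membrane attached. They hold ribosomes, mRNAs and mitochondria but no cell bodies, and proteins can be made in them far from the nucleus. A sucrose cushion lets ribosomes and other heavy particles sediment while free RNA stays above, so the pellet is enriched in ribosome-bound mRNA, and a ratio of SYN to TH pellets asks which mRNAs are more or less represented on synaptic ribosomes than on those of the whole tissue. The cushion does not separate ribosomes from other heavy RNA-protein particles. Synaptosome preparations also carry pinched-off pieces of glia and membranes, and the TH lysate was passed through a syringe and cleared by centrifugation before its cushion, a step not described for SYN, so fraction and lysate handling cannot be told apart.

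The total count per library was 9612408 to 15423546 in TH and 5341263 to 18590040 in SYN. By depth, the SYN libraries fell in 2 pairs. Those of mice 195 and 198 were shallow, with 6268207 and 5341263 counts, and those of mice 196 and 197 held 18590040 and 15306804. In counts of the same genes, 2 SYN libraries of different pairs differed by a chi-square per gene of at least 21.7, against 11.1 and 6.54 within the pairs and 4.05 to 8.23 among the TH libraries. This measure grows with depth, so the 11.1 within the shallow pair does not show that mice 195 and 198 were alike. The difference between the pairs followed the GC content of genes in SYN (Spearman rho -0.42 across 12754 genes, a description) and not in TH (rho 0.06). Its part in the results was not tested, so values from each pair of mice are given beside many of those that move with it. Values per library are counts scaled for library size with TMM factors (CPM), listed in the order of mice 195, 196, 197 and 198.

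Of 16630 genes tested, 10178 (61.2%) were called, and 4912 (29.5%) were higher and 5266 (31.7%) were lower in SYN than in TH (edgeR's quasi-likelihood test with mouse as a block, Benjamini-Hochberg adjusted p under 0.05). The changes were not symmetrical in size. At least 2-fold higher were 1971 genes and at least 2-fold lower 1733, but beyond 4-fold there were 66 higher and 720 lower. This asymmetry is not one of mRNAs alone, since non-coding classes entered it. The 859 genes that still await experimental proof had a median of -2.11 and the 92 sense intronic genes one of -1.93. Of 13631 protein-coding genes, 32.3% were called higher and 29.4% lower. The median over all genes was -0.08 on the log2 scale, and the values ran from -1.85 to 1.28 between the 5th and the 95th percentile. Of the genes called higher, 4622 had a higher log2 CPM in SYN in 4 of 4 mice, and of those called lower, 5068 were lower in 4 of 4. The values of the 4 SYN libraries lay wholly above those of the 4 TH libraries for 4315 genes (25.9%) and wholly below them for 4820 (29%). With mice 195 and 198 alone, 3942 (23.7%) genes were called higher and 3345 (20.1%) lower, and with mice 196 and 197 alone 4338 (25.1%) and 3988 (23.1%). Scaling by the total count alone moved the median of all genes by -0.53 and the split to 2460 higher and 9504 lower, so fold changes are relative to the bulk of genes, not absolute amounts.

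**Figure D1:**
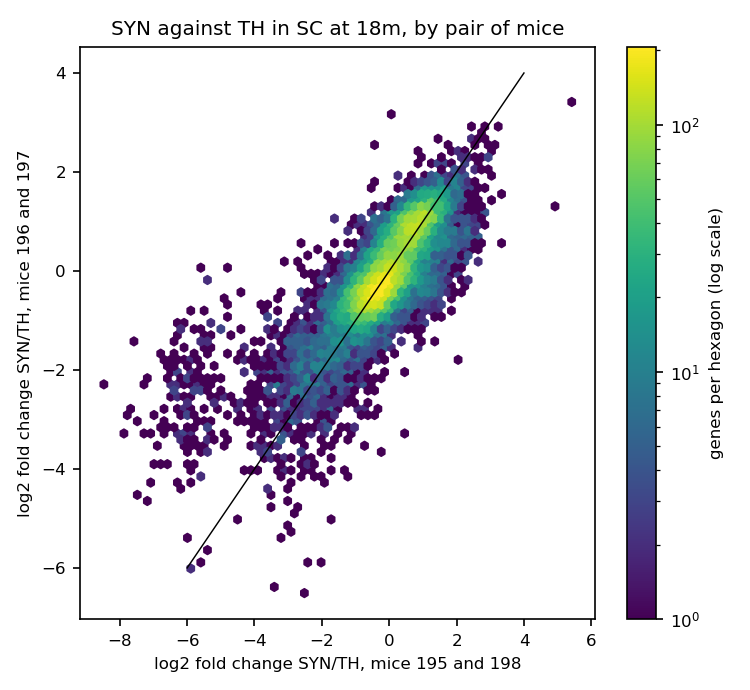
Log2 fold changes of SYN against TH in SC at 18m for each gene, fitted with mice 195 and 198 (x axis) and with mice 196 and 197 (y axis), with shading for the number of genes and a line of equality. Of the 10178 genes called over 4 mice, 18 had opposite signs in the pairs. The separate cloud at the far left is mostly genes at 0 counts in both shallow SYN libraries, whose fitted value there is no measure of size.

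Structural RNAs of the cell showed the contrast between the fractions without any coding sequence, so the RNA that was lowest among them is printed here from the GENCODE M21 transcript (GRCm38). Rmrp is the RNA of RNase MRP, an enzyme of the nucleolus that processes ribosomal RNA precursors. Rn7s1 is a copy of 7SL RNA, the scaffold of the signal recognition particle that binds ribosomes making secreted and membrane proteins and brings them to the endoplasmic reticulum.
Rmrp, 271 bases, chr4:43492788-43493058, minus strand: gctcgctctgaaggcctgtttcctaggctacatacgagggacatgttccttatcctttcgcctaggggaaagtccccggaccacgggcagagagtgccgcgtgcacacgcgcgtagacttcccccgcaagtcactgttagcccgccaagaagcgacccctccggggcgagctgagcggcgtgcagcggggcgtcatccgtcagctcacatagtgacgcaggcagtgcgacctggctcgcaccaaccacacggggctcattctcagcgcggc
Rmrp was measured at 366, 512, 622 and 587 CPM in TH and 37.4, 78.4, 89.9 and 27.5 CPM in SYN. Its level was lower in SYN (log2 fold change -3.25 ± 0.27 (SE), adjusted p = 5.15e-08). It overlaps Ccdc107, and reads were counted without strand, so a part of them may belong to that gene. Rn7s1 showed the opposite direction, with 13.1, 25.4, 26.2 and 16.1 CPM in TH and 24.3, 37.9, 65.7 and 24.8 CPM in SYN. It was higher in SYN within each of 4 mice although the groups overlapped (log2 fold change 0.87 ± 0.33 (SE), adjusted p = 0.0337), but the call was a weak one. It was lost without mouse 195 or mouse 197, without the mouse block, with DESeq2, with either other scaling, with thinned libraries, with the filter of 10 counts, in the fit of all 48 libraries and with either pair of mice alone. Scaled by the total count its log2 fold change was 0.34. Rn7s2 has the same 300 bases as Rn7s1, so reads cannot be assigned between them. It stood at 15.8, 25.9, 29.8 and 21.2 CPM in TH and 25.7, 37.7, 73.2 and 26.6 CPM in SYN and did not pass (log2 fold change 0.74 ± 0.34 (SE), adjusted p = 0.0709). Rn7sk, the 7SK RNA that holds back transcription elongation in the nucleus, was at 162, 282, 324 and 248 CPM in TH and 74.2, 129, 168 and 50.1 CPM in SYN and was lower in each mouse (log2 fold change -1.35 ± 0.25 (SE), adjusted p = 0.000233). For Rpph1, the RNA of RNase P, values of 67.3 ± 22.4 CPM in TH and 48.4 ± 16.1 CPM in SYN (SD, n = 4 each) gave no call (log2 fold change -0.47 ± 0.23 (SE), adjusted p = 0.0831). Of 9 listed polymerase III products, 5 were tested. In the small structural RNA class as a whole, the share of all counts fell from 0.123, 0.182, 0.184 and 0.16% in TH to 0.0299, 0.0444, 0.0552 and 0.0351% in SYN.

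Long RNAs that stay in the nucleus were among the lowest. Of 11 such RNAs listed, 10 were lower and 1 was higher, with a median of -1.49 against -0.08 over all genes. Meg3, an imprinted non-coding RNA of neurons, was at 1513, 1557, 1368 and 1466 CPM in TH and 154, 232, 219.9 and 232 CPM in SYN (log2 fold change -2.83 ± 0.16 (SE), adjusted p = 1.54e-09). Firre (-2.82 ± 0.21), Neat1 (-2.66 ± 0.21), which builds nuclear paraspeckles, Miat (-2.55 ± 0.15) and Snhg11 (-2.40 ± 0.14) were lower by similar amounts on the log2 scale (fold change ± SE). Ftx, a non-coding gene of the X inactivation centre, was lower still (log2 fold change -3.43 ± 0.19 (SE), adjusted p = 1.31e-09). Malat1, a very abundant RNA of nuclear speckles, stood apart from them. It was at 3113, 4017, 3205 and 3382 CPM in TH and 2690, 1926, 1863 and 3153 CPM in SYN, and its fold change was only -0.54 ± 0.23 (adjusted p = 0.0482), being -0.16 in mice 195 and 198 and -0.91 in mice 196 and 197. The call of Malat1 was lost without mouse 195, 196 or 197 and without the mouse block (adjusted p = 0.0546). Mirg was the member that was higher (log2 fold change 0.51 ± 0.19 (SE), adjusted p = 0.0279), at a low level of 7.90 ± 2.17 CPM in TH and 11.2 ± 2.76 CPM in SYN, and with the total count as scale its sign turned (-0.02). Other annotation classes outside protein-coding genes were often lower too. Of 859 genes of the annotation class that still awaits experimental proof, 83.4% were lower (median -2.11), as were 76 of 92 sense intronic genes (median -1.93) and 140 of 290 lincRNAs (median -0.67). The share of counts in lincRNAs was 1.62, 1.83, 1.45 and 1.55% in TH and 0.849, 0.96, 0.807 and 0.805% in SYN, lower in 4 of 4 mice (exact two-sided sign-flip test, p = 0.125, the smallest 4 mice allow).

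**Figure D2:**
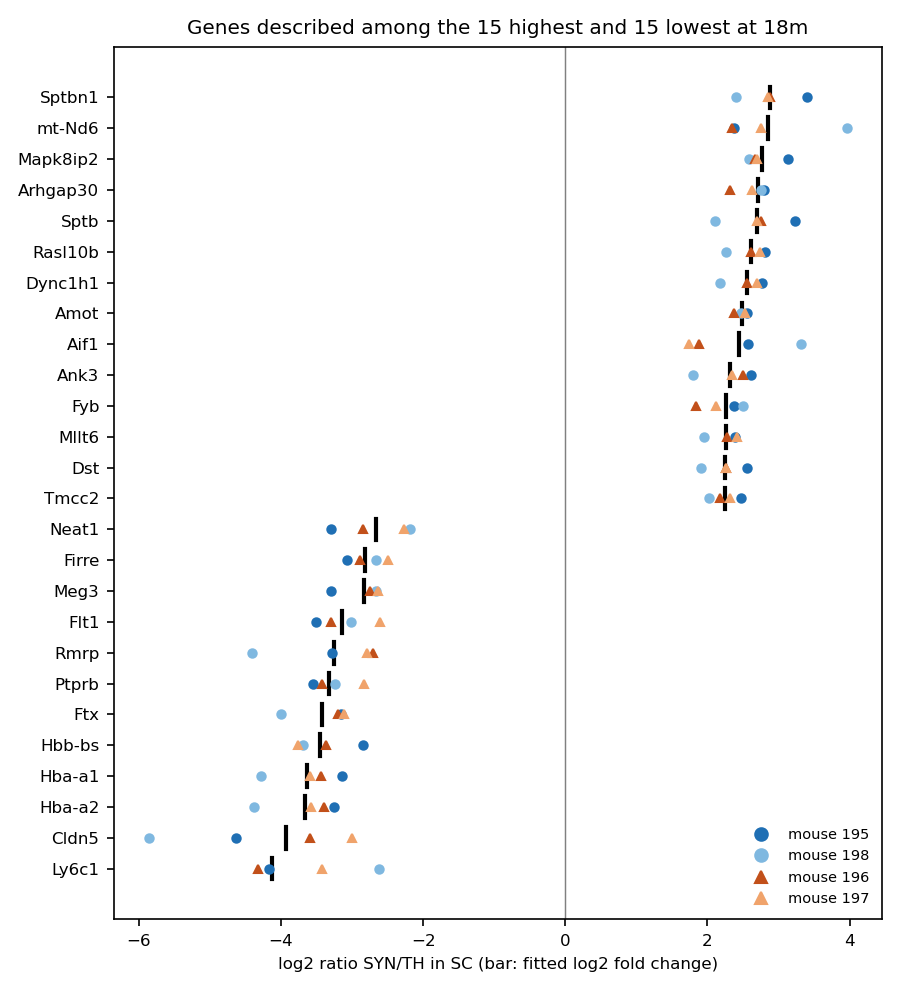
Log2 ratio of SYN to TH in SC for the genes described here among the 15 named for the largest and the 15 named for the smallest fold change. Each point is 1 of the 4 mice, circles for mice 195 and 198 and triangles for mice 196 and 197, and the bar is the fitted log2 fold change.

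The other end of the ranking held very long structural proteins of the membrane skeleton. Spectrins form the elastic lattice under the neuronal membrane, and ankyrins tie ion channels to it. Sptbn1, beta-II spectrin (chromosome 11, 30099395 to 30268175, minus strand), was at 454, 483, 524 and 488 CPM in TH and 4798, 3569, 3783 and 2596 CPM in SYN (log2 fold change 2.89 ± 0.19 (SE), adjusted p = 7.37e-09). No overlap between the groups was part of the rule that named it, and the SYN library of mouse 198 was the lowest of its group. Sptb, first known from red cells, was also higher (log2 fold change 2.70 ± 0.15 (SE), adjusted p = 1.53e-09). The cell source of its reads was not tested. Ank3, ankyrin-G of the axon initial segment, rose by 2.31 ± 0.16. Dst, a giant linker between actin and microtubules, rose by 2.25 ± 0.15, and Dync1h1, the heavy chain of the dynein motor, by 2.55 ± 0.13 (log2 fold change ± SE). Dync1h1 was at 703, 782, 742 and 769.7 CPM in TH and 4790, 4621, 4819 and 3479 CPM in SYN. Mapk8ip2, a scaffold of JNK signalling and motor cargo, was at 256, 245, 217 and 243 CPM in TH and 2248, 1561, 1409 and 1468 CPM in SYN (log2 fold change 2.77 ± 0.14 (SE), adjusted p = 7.04e-10). Among the 15 highest were also Rasl10b (2.61 ± 0.11), Amot (2.49 ± 0.10), a protein of cell junctions, Mllt6 (2.26 ± 0.10) and Tmcc2 (2.25 ± 0.10), and at much lower levels Arhgap30 (2.71 ± 0.21) and Fyb (2.26 ± 0.17), which are known from blood and immune cells. These genes were chosen for large ratios over the same 4 mice, so their ratios by pair only describe them. Sptbn1 was 2.91 in mice 195 and 198 and 2.88 in mice 196 and 197. Ank3 was 2.21 in mice 195 and 198 and 2.43 in mice 196 and 197, and Mapk8ip2 2.86 in mice 195 and 198 and 2.70 in mice 196 and 197. The value of a pair can hide a difference between its mice, Ank3 being 2.62 in mouse 195 and 1.79 in mouse 198.

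Components of the postsynaptic side were mostly higher in SYN. Of 36 mRNAs listed as dendritic or of spine proteins, 23 were higher and 5 lower (median 0.72, 0.61 to 1.01 across mice). Shank proteins are the master scaffolds of the postsynaptic density. Shank1 was at 1177, 1029, 975 and 992 CPM in TH and 4939, 5193, 5472 and 2892 CPM in SYN (log2 fold change 2.11 ± 0.14 (SE), adjusted p = 6.63e-09), and the groups did not overlap although the SYN library of mouse 198 was low. Shank3 (1.99 ± 0.16) and Shank2 (1.57 ± 0.15) followed, as did Ppp1r9b (2.16 ± 0.12), the actin-binding spinophilin, Dlgap3 (1.71 ± 0.12) and Ddn (1.69 ± 0.11), which codes for dendrin. Camk2a, the kinase of synaptic plasticity whose mRNA is a textbook dendritic transcript, was at 2900, 2532, 2497 and 2631 CPM in TH and 9553, 8309, 8341 and 6016 CPM in SYN (log2 fold change 1.59 ± 0.11 (SE), adjusted p = 9.35e-09). Kif5a, a motor of axonal and dendritic transport, was at 1678, 1715, 1683 and 1572 CPM in TH and 6849, 6226, 6361 and 6674 CPM in SYN, with little spread in either group (log2 fold change 1.97 ± 0.10 (SE), adjusted p = 6.37e-10). Dlg4, the PSD-95 scaffold, was higher by less (log2 fold change 0.53 ± 0.11 (SE), adjusted p = 0.000441), a change that vanished with the total count as scale (-0.0004). The list was not uniform. Nrgn, neurogranin, which binds calmodulin in spines, was lower, at 1841, 1817, 1594 and 1646 CPM in TH and 1028, 1138, 1071 and 869 CPM in SYN, with no overlap (log2 fold change -0.75 ± 0.12 (SE), adjusted p = 4.57e-05). Homer1 (-0.56 ± 0.11) and Actb (-0.27 ± 0.08) were lower too, whereas Homer2 was higher (1.50 ± 0.11). Calm3 (-0.09 ± 0.11) gave no call. With the total count as scale, 17 members were higher and 11 lower, and the median was 0.20.

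Receptors and channels were higher almost as a whole. Of 26 ionotropic glutamate receptor and auxiliary subunits, 25 were higher and 0 lower (median 0.80). Gria2, the AMPA receptor subunit that sets calcium permeability, was at 540.4, 478, 439 and 438 CPM in TH and 1645, 1158, 1040 and 2191 CPM in SYN (log2 fold change 1.61 ± 0.19 (SE), adjusted p = 2.58e-06). Grin1, the obligatory NMDA receptor subunit, rose by 1.60 ± 0.09. Neto1, an auxiliary subunit, was the member without a call (log2 fold change 0.22 ± 0.10 (SE), adjusted p = 0.0657). Of 15 genes of GABA-A receptors and their scaffold, 13 were higher (median 1.04). Gphn, the cytosolic scaffold gephyrin, was a member without a call (-0.13 ± 0.14). Among 41 voltage-gated channel genes, 37 were higher and 3 lower (median 0.88). Hcn2 (1.45 ± 0.10) and Scn2a (1.44 ± 0.13), a sodium channel of excitatory axons, rose the most with Cacna2d1 (1.33 ± 0.11). The members that were lower were Cacnb2 (-0.94 ± 0.12), Cacnb1 (-0.82 ± 0.13) and Cacnb4 (-0.67 ± 0.12), which code for beta subunits on the cytosolic side of calcium channels, while Cacnb3 was higher (0.65 ± 0.11). Under library-size scaling 16, 9 and 26 members of these lists stayed higher, and 1, 2 and 4 were lower.

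Synaptic vesicle and release genes split in both directions. Of 53, 22 were higher and 26 lower, with a median of -0.18, against 29.5% higher and 31.7% lower among all genes tested. Syp, synaptophysin, a protein that crosses the vesicle membrane, was at 1520, 1433, 1219 and 1395 CPM in TH and 3728, 3570, 3174 and 4617 CPM in SYN (log2 fold change 1.43 ± 0.14 (SE), adjusted p = 3.06e-07). Syt1, the calcium sensor of release, rose by 1.40 ± 0.13, and the transporters that fill vesicles with transmitter rose as well, Slc17a7 by 1.13 ± 0.10, Slc17a6 by 1.22 ± 0.12 and Slc32a1 by 0.86 ± 0.11. So did Sv2a (1.20 ± 0.09), Synpr (1.28 ± 0.10) and the active zone giant Bsn (1.41 ± 0.15). By contrast Snap25, a SNARE held to the membrane by lipid anchors, was at 2288, 1975, 1947 and 1811 CPM in TH and 1461, 1066, 981 and 1453 CPM in SYN, every SYN value below every TH value (log2 fold change -0.71 ± 0.12 (SE), adjusted p = 0.00013). Also lower were Sncb (-1.08 ± 0.11), a synuclein, Rab3a (-0.81 ± 0.15), the small GTPase of vesicles, Nsf (-0.81 ± 0.12) and Napa (-1.02 ± 0.20), which take SNARE complexes apart, Dnm1 (-0.95 ± 0.11), the dynamin of endocytosis, and the synapsins Syn1 (-0.50 ± 0.12), Syn2 (-0.77 ± 0.12) and Syn3 (-0.78 ± 0.19). Sncg was lowest (log2 fold change -1.94 ± 0.46 (SE), adjusted p = 0.00178). Vamp2 was lower by little (log2 fold change -0.21 ± 0.08 (SE), adjusted p = 0.0318), and the syntaxin Stx1a (-0.18 ± 0.10) gave no call. As background, the members named as higher cross the vesicle membrane except Bsn, and those named as lower act from the cytosol except Vamp2, which crosses the membrane. The names were picked after the values were seen, and cytosolic members such as Unc13a (0.41 ± 0.10, but -0.12 with the total count as scale) and Rims1 (0.59 ± 0.09) were higher too, so no test of this division was made.

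**Figure D3:**
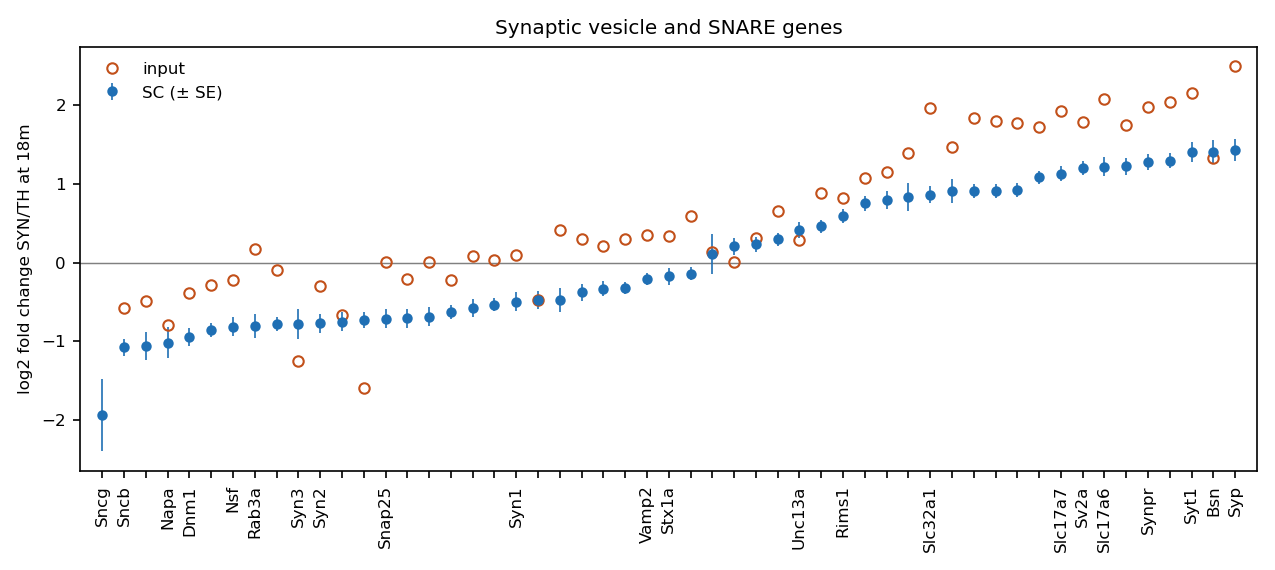
Log2 fold change of SYN against TH at 18m for the 53 synaptic vesicle and SNARE genes, in the SC libraries (filled circles, with SE bars) and in the input libraries (open circles), sorted by the SC value, with names for the members described. In SC 26 members were called lower and in input 13.

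The machinery of the secretory pathway was higher. It translocates proteins into the endoplasmic reticulum, folds them and adds sugars. Of 41 genes listed, 32 were higher and 4 lower (median 1.14, 1.06 to 1.24 across mice). Canx, the membrane chaperone calnexin, was at 550.5, 481, 404 and 426 CPM in TH and 1878, 1351, 1159 and 2604 CPM in SYN (log2 fold change 1.84 ± 0.20 (SE), adjusted p = 8.63e-07). Hspa5, the chaperone BiP, was at 253, 362, 229 and 329 CPM in TH and 906, 1064, 674 and 1669 CPM in SYN (log2 fold change 1.82 ± 0.16 (SE), adjusted p = 9.87e-08), and Hsp90b1 rose by 1.76 ± 0.21. The members that were lower, Srp19 (-0.71 ± 0.19), Srp68 (-0.38 ± 0.12), Srp9 (-0.35 ± 0.12) and Srp14 (-0.29 ± 0.12), code for cytosolic proteins of the signal recognition particle, whose RNA was described above. The receptor for that particle in the membrane was higher, both as Srpr (0.83 ± 0.11) and as Srprb (0.84 ± 0.16). Neuropeptides and the granins packed with them gave 23 of 24 higher and 0 lower (median 1.23). Pcsk1, a protease that cuts peptide precursors, was at 44.4, 52.3, 35.1 and 40.0 CPM in TH and 166, 149, 115 and 239 CPM in SYN (log2 fold change 1.93 ± 0.17 (SE), adjusted p = 1.14e-07). Chga (1.84 ± 0.17) and Chgb (1.75 ± 0.15), the chromogranins, were close to it, and Sst was at 188 ± 27.7 CPM in TH and 329 ± 116 CPM in SYN (log2 fold change 0.76 ± 0.18 (SE), adjusted p = 0.00156), being 0.35 in mice 195 and 198 and 1.17 in mice 196 and 197. Npy was the member without a call, being -0.22 in mice 195 and 198 and 1.11 in mice 196 and 197. Cholesterol synthesis genes were higher in 17 of 22 (median 0.67), with Cyp51 (1.44 ± 0.11) highest. The list's median was 0.51 in mice 195 and 198 and 0.81 in mice 196 and 197. Fdps was lower (log2 fold change -0.98 ± 0.33 (SE), adjusted p = 0.0172).

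Genes of the translation apparatus did not move together. Of 81 cytosolic ribosomal protein genes tested, 59 were higher and 0 lower (median 0.61), but with the total count as scale the numbers were 21 and 3 (median 0.08). Their summed share of counts was 0.454, 0.507, 0.516 and 0.493% in TH and 0.61, 0.522, 0.585 and 0.605% in SYN. Rpl9 (1.48 ± 0.17), Rps16 (1.44 ± 0.19) and Rpsa (1.36 ± 0.12) rose the most, and these genes have many near-identical pseudogene copies that can share reads. The list's median was 0.65 in mice 195 and 198 and 0.63 in mice 196 and 197, although single members differed between the pairs, Rps29 being -0.57 in mice 195 and 198 and 0.93 in mice 196 and 197 and Rpl5 1.94 in mice 195 and 198 and 0.63 in mice 196 and 197. Of 49 initiation and elongation factors, 10 were higher and 10 lower, against 29.5% and 31.7% of all genes tested. Pabpc1, which binds poly(A) tails, was at 83.9, 89.9, 91.9 and 84.6 CPM in TH and 209, 183, 192 and 177 CPM in SYN (log2 fold change 1.12 ± 0.08 (SE), adjusted p = 2.09e-08). Eef2, the elongation factor that moves the ribosome along, was at 727, 766, 764 and 785 CPM in TH and 1709, 1599, 1694 and 1264 CPM in SYN (log2 fold change 1.03 ± 0.11 (SE), adjusted p = 6.07e-07), and Eef1a1 rose by 0.72 ± 0.11 while its neuronal paralog Eef1a2 was lower (-0.37 ± 0.08). Tpt1 (1.00 ± 0.17) was also higher. Eif2b3, a subunit of the exchange factor for initiation factor 2, was lowest in the list (log2 fold change -0.74 ± 0.17 (SE), adjusted p = 0.00119), and the other subunits Eif2b2 (-0.45 ± 0.12) and Eif2b4 (-0.36 ± 0.14) were lower too.

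Mitochondria contribute RNA from their own genome and from the nucleus. All 13 protein genes of the mitochondrial genome were called higher (median 1.17). These mRNAs are read by mitochondrial, not cytosolic, ribosomes. mt-Co1, a subunit of cytochrome oxidase, was at 2460, 2737, 3385 and 2933 CPM in TH and 5449, 9016, 11900 and 7239 CPM in SYN (log2 fold change 1.50 ± 0.24 (SE), adjusted p = 6.05e-05). SYN libraries of mice 195 and 198 held less than those of 196 and 197, and with the first pair alone 3 of 13 were called higher, against 11 with the second. mt-Nd6, which is read from the other strand and overlaps mt-Nd5, was at 143, 104, 63.3 and 82.7 CPM in TH and 744, 531, 430 and 1294 CPM in SYN (log2 fold change 2.86 ± 0.43 (SE), adjusted p = 2.94e-05). The share of all counts in these 13 genes was 0.589, 0.708, 0.908 and 0.765% in TH and 0.867, 1.47, 2.09 and 1.19% in SYN (exact two-sided sign-flip test, p = 0.125). For nuclear genes of the respiratory chain, 22 of 75 were higher, close to the 29.5% of all genes tested. Lower were 7, against 31.7% of all genes. The median was 0.18 with TMM and -0.35 with the total count as scale. Ndufa1 (0.93 ± 0.17), Cox7c (0.92 ± 0.15) and Ndufb9 (0.88 ± 0.14) rose the most, and Ndufs7 was lower (-0.64 ± 0.23). Mitochondrial ribosomal proteins, which are made in the cytosol, had 2 of 75 higher and 32 lower (median -0.31). Mrps10 (-1.12 ± 0.28) and Mrpl37 (-0.93 ± 0.17) were lowest. The list's median was -0.44 in mice 195 and 198 and -0.27 in mice 196 and 197, with 26 and 9 called lower.

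Splicing and proteasome lists leaned lower, and chromatin and cytoskeletal lists had calls in both directions. Of 46 splicing factors, 0 were higher and 27 lower (median -0.47). Tra2a was at 33.3, 49.5, 44.2 and 48.5 CPM in TH and 10.5, 15.8, 12.7 and 11.9 CPM in SYN, a clear separation (log2 fold change -1.78 ± 0.12 (SE), adjusted p = 8.25e-09). Snrnp70 (-1.52 ± 0.13), of the U1 particle, and Srsf11 (-1.20 ± 0.12) followed. Clk1, a kinase of splicing factors whose own transcript is known to be held back in the nucleus with introns, was at -1.17 ± 0.24. Abundant hnRNP genes such as Hnrnpa1 (0.29 ± 0.22) and Hnrnpk (-0.10 ± 0.13) gave no call, but Hnrnpa1 was 0.82 in mice 195 and 198 and -0.22 in mice 196 and 197, with a call in the first pair. The median of the splicing list was -0.25 in mice 195 and 198 and -0.61 in mice 196 and 197, with 16 and 28 members called lower. Proteasome subunits gave 0 of 35 higher and 18 lower (median -0.26), with Adrm1 lowest (-0.75 ± 0.13) and Psma1, a subunit of the core, at -0.59 ± 0.18. Of 49 chromatin and transcription regulators, 11 were higher and 17 lower, beside 29.5% higher and 31.7% lower among all genes tested. Their median of -0.13 was near the -0.08 of all genes. Hdac5 (1.34 ± 0.13), Chd3 (1.25 ± 0.10) and Rad21 (0.83 ± 0.13) were the highest, and Ehmt1 (-1.09 ± 0.12), Neurod6 (-0.89 ± 0.13) and Foxp1 (-0.79 ± 0.13) the lowest. Canonical histones, 16 of 17 tested, had 7 lower and 1 higher, but their gene copies are alike. Among 9 host genes of small nucleolar RNAs, whose spliced RNAs are known to meet ribosomes, 2 were higher, Snhg8 (1.12 ± 0.23) and Gas5 (0.76 ± 0.23), and 3 were lower, Snhg17 (-1.77 ± 0.24), Snhg20 (-1.18 ± 0.38) and Snhg1 (-1.09 ± 0.40). Of 40 cytoskeletal and motor genes, 14 were higher and 18 lower, with a median of -0.07, also near that of all genes. Named after their values were seen, Kif5b (1.39 ± 0.09), a motor, and Map1a (1.04 ± 0.13), a microtubule-associated protein, rose. The tubulins and actin Tubb4a (-1.02 ± 0.17), Tubb3 (-0.67 ± 0.08) and Actg1 (-0.79 ± 0.16) were lower and Tuba1a (-0.02 ± 0.13) gave no call.

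Immediate early genes, which neurons switch on within minutes of activity, were lower in SYN in 17 of 22 (median -0.72), and 1 was higher. Fos was at 7.21, 25.9, 21.7 and 25.3 CPM in TH and 3.64, 17.3, 12.0 and 11.2 CPM in SYN, so the groups overlapped, but within each mouse SYN was below TH (log2 fold change -0.86 ± 0.13 (SE), adjusted p = 2.34e-05). Egr1 likewise was at 208, 408, 273 and 263 CPM in TH and 80.5, 219.7, 149 and 101 CPM in SYN (log2 fold change -1.12 ± 0.17 (SE), adjusted p = 3.55e-05). Klf4 (-1.99 ± 0.32) and Klf2 (-1.33 ± 0.23), also known from blood vessels, were lowest. Arc was the exception. Its mRNA is carried into dendrites and translated near active synapses, and it was at 36.5, 128, 128 and 118 CPM in TH and 83.8, 359.7, 258 and 179 CPM in SYN, higher in SYN within each of 4 mice (log2 fold change 1.08 ± 0.12 (SE), adjusted p = 1.97e-06). Mouse 195 had the lowest value of Fos, Egr1 and Arc in both fractions.

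**Figure D4:**
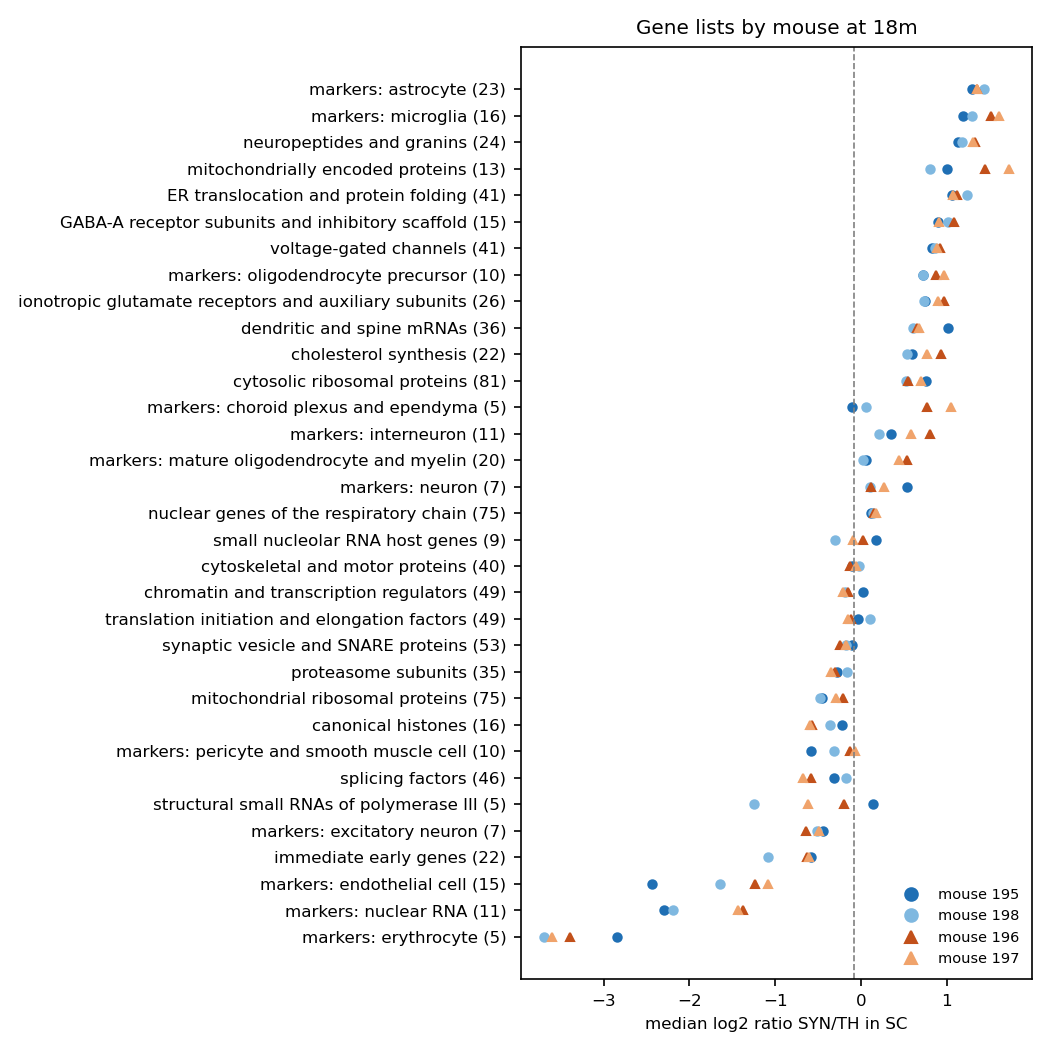
Median log2 ratio of SYN to TH in SC over the tested members of each gene list, with 1 point per mouse (circles for mice 195 and 198, triangles for 196 and 197) and the number of members in brackets. The dashed line is the median over all genes tested, -0.08, and total-count scaling would shift every list by -0.53, which turns the medians between 0 and that size negative.

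Marker genes of other cell types were measured in the same pellets, and their part in the results above was not tested. Of 23 astrocyte markers, 23 were higher (median 1.35), and their share of counts was 1.84, 1.72, 1.78 and 1.78% in TH and 3.47, 3.39, 3.39 and 3.96% in SYN. Gfap, the intermediate filament of astrocytes, was at 298, 232, 242 and 281 CPM in TH and 1156, 927, 912 and 1385 CPM in SYN (log2 fold change 2.04 ± 0.11 (SE), adjusted p = 1.17e-09), and Sparcl1 was at 2097, 1797, 1807 and 1500 CPM in TH and 7505, 6429, 5997 and 9599 CPM in SYN (log2 fold change 2.02 ± 0.17 (SE), adjusted p = 7.66e-08). Of 16 microglia markers, 16 were higher (median 1.33), with sums of 475 to 536 CPM in TH and 1143 to 1622 CPM in SYN. Aif1 (2.44 ± 0.24), Itgam (2.05 ± 0.21) and C1qb (1.87 ± 0.13) rose the most. In bulk samples, fewer or more fragments of a cell type and less or more RNA in each cannot be told apart. Oligodendrocyte precursor markers gave 7 of 10 higher, and mature oligodendrocyte and myelin markers 9 of 20 higher and 4 lower. Mbp, whose mRNA is carried out into myelin sheaths, was at 753, 776, 907 and 843 CPM in TH and 1155, 1465, 1611 and 978 CPM in SYN (log2 fold change 0.65 ± 0.11 (SE), adjusted p = 9.54e-05), Mobp, likewise transported, rose by 1.03 ± 0.12, and the transcription factor Sox10 was lower (-0.96 ± 0.13). The myelin list's median was 0.33 with TMM and -0.20 with the total count as scale, and it was -0.05 in mice 195 and 198 and 0.54 in mice 196 and 197.

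Most vascular and all tested red cell markers were lower. Of 15 endothelial markers, 12 were lower and 1 higher (median -1.28). The median was -2.41 in mice 195 and 198 and -1.01 in mice 196 and 197, with 12 and 12 called lower. Ly6c1 was at 10.6, 10.7, 8.04 and 7.87 CPM in TH and 0.383, 0.327, 0.55 and 1.10 CPM in SYN (log2 fold change -4.13 ± 0.33 (SE), adjusted p = 3.18e-08), and Cldn5, the claudin of the blood-brain barrier, at 14.7, 14.2, 14.7 and 12.4 CPM in TH and 0.383, 0.982, 1.65 and 0 CPM in SYN (log2 fold change -3.93 ± 0.35 (SE), adjusted p = 1.21e-07). Flt1 (-3.14 ± 0.18) and Ptprb (-3.33 ± 0.19) were among the 15 lowest as well. Bsg, which other cells also express, was the member that was higher (0.86 ± 0.13), and with it the summed level of the list was 475 to 524 CPM in TH and 536 to 729 CPM in SYN. All 5 erythrocyte markers tested were lower (median -3.63). Hba-a1 and Hba-a2, nearly identical alpha-globin genes whose reads may be split, were at 100.3 ± 33.3 CPM in TH and 7.72 ± 1.58 CPM in SYN and at 94.0 ± 33.4 CPM in TH and 7.05 ± 1.75 CPM in SYN (SD, n = 4), and Hbb-bs was at 136 ± 39.7 CPM in TH and 12.1 ± 1.30 CPM in SYN (log2 fold change -3.46 ± 0.16 (SE), adjusted p = 3.65e-10). Among pericyte and smooth muscle markers 4 of 10 were lower, Myh11 by the most (-1.87 ± 0.58), and 2 were higher, with a median of -0.63 in mice 195 and 198 and -0.21 in mice 196 and 197. Over all genes tested, 31.7% were lower and 29.5% higher. Of 5 choroid plexus and ependyma markers tested, 1 was higher and 1 lower, and Ttr stood at 248 ± 166 CPM in TH and 297 ± 81.8 CPM in SYN (SD, n = 4), without a call (log2 fold change 0.51 ± 0.26 (SE), adjusted p = 0.0958). It was -0.21 in mice 195 and 198 and 1.25 in mice 196 and 197, where it was called.

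Neuronal markers went both ways within each cell type. Of 7 general markers, 4 were higher and 3 lower, the latter being Snap25, Tubb3 and the nuclear protein Rbfox3 (-0.52 ± 0.09). Of 7 excitatory neuron markers, 2 were higher and 5 lower. The transcription factors Neurod2 (-0.53 ± 0.11) and Tbr1 (-0.43 ± 0.14) were among the lower. The higher ones were the transporter Slc17a7 and another transcription factor, Cux2 (0.31 ± 0.11). Cux2 was 0.16 in mice 195 and 198, without a call, and 0.47 in mice 196 and 197. Among interneuron markers, Lhx6 (-0.91 ± 0.17), Dlx1 (-0.89 ± 0.16), Gad1 (-0.79 ± 0.13), Gad2 (-0.61 ± 0.11) and Pvalb (-0.64 ± 0.13) were lower, and Erbb4 (0.86 ± 0.08), Cnr1 (0.72 ± 0.09), Sst and Vip (0.50 ± 0.13, but -0.03 with the total count as scale) higher with Slc32a1. The median of the interneuron list was 0.28 in mice 195 and 198 and 0.71 in mice 196 and 197. Of the genes that assays followed one by one, Ldhb, a lactate dehydrogenase subunit, was at 495, 426, 429.5 and 419 CPM in TH and 768, 579, 524 and 982 CPM in SYN (log2 fold change 0.65 ± 0.15 (SE), adjusted p = 0.00125). It was 0.93 in mice 195 and 198 and 0.38 in mice 196 and 197. Nfasc, neurofascin of the axon initial segment and node, was at 395, 418, 412 and 420.1 CPM in TH and 668, 895, 880.2 and 734 CPM in SYN (log2 fold change 0.94 ± 0.09 (SE), adjusted p = 2.21e-07). Bcas1, a protein of newly formed myelin, was at 56.2, 42.7, 42.1 and 37.4 CPM in TH and 224, 158, 151 and 220.5 CPM in SYN (log2 fold change 2.07 ± 0.16 (SE), adjusted p = 2.48e-08). H3f3b, a replication-independent histone H3, was lower (log2 fold change -0.37 ± 0.10 (SE), adjusted p = 0.0049), as were Birc2, an inhibitor of apoptosis (log2 fold change -0.40 ± 0.15 (SE), adjusted p = 0.0253, -0.15 in mice 195 and 198 and -0.62 in mice 196 and 197), and Eif2b3.

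Length and base composition went with the fold changes only weakly. Among protein-coding genes of the nuclear genome, 25.9% of 1127 genes with a coding length under 500 bases were higher and 22.8% lower. With a coding length of 8000 bases or more, 40.6% of 175 were higher and 19.4% lower. The medians of these bins were -0.04 and 0.19, and Spearman's rho across genes was 0.05. For 3′ UTR length rho was 0.05. GC content divided the mice. The value of rho was -0.04 with mice 195 and 198 and 0.23 with mice 196 and 197, so that genes of 60% GC or more had a median of 0.03 in the first pair and 0.39 in the second. In the mice of the other ages rho was 0.29 at 5m and 0.22 at 3w, so mice 195 and 198 were the ones that stood apart. Processed pseudogenes also differed, with 337 of 1033 higher over all mice but medians of 0.71 and 0.03 in the pairs. They share sequence with their parent genes, ribosomal protein genes among them, and are reported as uncertain.

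The input RNA of the same mice showed how far the pellets differed beyond the RNA that was there to begin with. In input 12658 of 17860 genes (70.9%) were called, 32.3% higher and 38.6% lower. Of those called higher in the pellets, 84.9% were higher in input too, and 72.9% of those higher in input were higher in the pellets. For lower genes the shares were 76.9% and 69.1%. The difference between pellets and input was itself tested as an interaction. It was called in 4500 of 18112 genes (24.8%), 1717 (9.48%) with a higher and 2783 (15.4%) with a lower SYN to TH ratio in SC than in input. Without mouse 195 the interaction was called in 2834 genes, without mouse 196 in 2282, and without both mice 196 and 197 in 1701. The excess of lower over higher calls was not stable, being 1105 lower against 1177 higher without mouse 196, 2197 against 2040 with the total count as scale and 2352 against 2125 with DESeq2.

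Several lists had smaller SYN to TH ratios in the pellets than in input. A lower ratio in SC than in input was called for 38 of 53 synaptic vesicle genes, 28 of 41 channels, 25 of 41 secretory pathway genes and 14 of 24 neuropeptide genes, and a higher one for 1, 0, 0 and 0. The cytoskeletal and motor list gave 25 of 40 lower and 2 higher, and the vesicle list holds cytosolic proteins too. Syp had a log2 ratio of 2.49 ± 0.09 in input and 1.43 ± 0.14 in SC, a difference of -1.09 ± 0.15, and Snap25 0.01 ± 0.08 in input and -0.71 ± 0.12 in SC, a difference of -0.75 ± 0.15. Left with mice 195 and 198 at 18m, the difference of Snap25 was -0.39 and was not called. Chga (2.74 in input) and Serpini1, a secreted protease inhibitor of neurons (2.82 in input against 1.61 in SC), were among the genes named for the largest ratios in input. The SYN to TH ratio of spectrins was larger in SC, Sptbn1 by 1.27 ± 0.19 and Sptb by 0.93 ± 0.16, and so was that of Bcas1 (1.35 ± 0.25), Ank3 (0.96 ± 0.16) and Dst (0.91 ± 0.14). Nuclear RNAs were lower in input by more than in SC, 10 of 11 having a higher ratio in SC, Malat1 by 1.67 ± 0.26. For splicing factors 18 of 46 had a higher and 3 a lower ratio in SC. Lrrc45 and Lama5 were lower in input and, by weak calls, higher in SC. Lrrc45 was at -1.89 ± 0.15 in input and 0.55 ± 0.15 in SC, and Lama5, a laminin of basement membranes, at -1.85 ± 0.18 and 0.58 ± 0.20. Both SC calls were lost with the total count as scale (0.02 and 0.05) and with the GC and length trend removed (0.40 and 0.20). With mice 195 and 198 alone Lama5 was 0.26 in SC, and with mice 196 and 197 alone Lrrc45 was 0.41, both without a call. Coding length was tied to this difference more than to the pellets themselves (rho 0.24 across 13618 genes), its median rising from -0.29 under 500 bases to 0.31 at 8000 bases or more.

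Mice of the other ages gave the same comparison in other animals. At 5m 11176 genes (67.2%) were called and at 3w 10464 (62.9%). Higher in SYN were 31.9% of genes at 5m and 30.6% at 3w, and lower 35.3% and 32.3%. Of the genes higher at 18m, 89.4% were higher at 5m and 0.143% lower, and of those higher at 5m 82.7% were higher at 18m. For genes lower at 18m the share that was lower at 5m was 82.7%, and in the other direction 74.2%. With 3w the shares were 84.7% and 81.6% for higher and 74.8% and 73.3% for lower genes. The difference between ages was tested in the same model. Between 18m and 5m no gene passed (0%) in edgeR, 3105 (18.7%) having an unadjusted p under 0.05, whereas DESeq2 called 405 (5.33% of the 7602 genes to which it gave an adjusted p). Between 18m and 3w 684 genes (4.11%) had a higher and 382 (2.3%) a lower SYN to TH ratio at 18m, 6.41% in all. This balance turned to 583 higher and 924 lower with the GC and length trend removed and to 503 and 586 without mice 196 and 197. The number of 1066 fell to 352 without mouse 195, to 560 without mouse 197 and to 302 without mice 195 and 198. Lower ratios fell from 382 to 55 without mouse 195, to 113 without mouse 198 and to 13 without both. Higher ratios went from 684 to 297, 665 and 289 in the same fits. Between 18m and 5m, 632 genes passed with mice 196 and 197 left out and 0 with mice 195 and 198 left out.

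Of the genes named for the largest ratios at 18m, several also differed between 18m and 3w, but genes chosen for high values at 18m lean towards a positive difference. Among them mt-Nd6, Aif1, Arhgap30 and Fyb were not called in this difference. Sptbn1 was at 1.49 at 3w, 1.90 at 5m and 2.89 at 18m on the log2 scale, the difference between 18m and 3w being 1.40 ± 0.26 (adjusted p = 0.0065). Dync1h1 (1.15 ± 0.17), Mapk8ip2 (1.08 ± 0.19), Ank3 (1.15 ± 0.22) and Shank1 (1.10 ± 0.19) were likewise called in this difference. Among dendritic and spine mRNAs 11 of 36 had a higher ratio at 18m and 0 a lower one. For nuclear RNAs, the ratio was higher at 18m than at 3w in 8 of 11. Meg3 was at -4.44 at 3w, -3.55 at 5m and -2.83 at 18m (difference 1.61 ± 0.21, adjusted p = 0.0014) and Malat1 at -3.09 at 3w, -2.39 at 5m and -0.54 at 18m (difference 2.55 ± 0.32, adjusted p = 0.0014). A lower ratio at 18m was called for 10 of 20 myelin markers, 17 of 75 respiratory chain genes, 9 of 81 ribosomal protein genes and 6 of 24 neuropeptide genes. Over all genes, only 13 lower ratios were called without mice 195 and 198, so these counts rest largely on that pair. The Fc receptor Fcgr2b was at -1.95 at 3w, -0.43 at 5m and 0.49 at 18m (difference 2.45 ± 0.42, adjusted p = 0.00401) and Cd200r3 at -4.56 at 3w, -2.74 at 5m and -1.86 at 18m (difference 2.70 ± 0.38, adjusted p = 0.0016). At 18m itself Fcgr2b gave no call in edgeR (adjusted p = 0.135). It was 0.98 in mice 195 and 198, 0.05 in mice 196 and 197 and -0.03 with the total count as scale. Whether mice of different ages were handled on the same days is not given in the sources used here, so age and handling cannot be told apart.

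**Figure D5:**
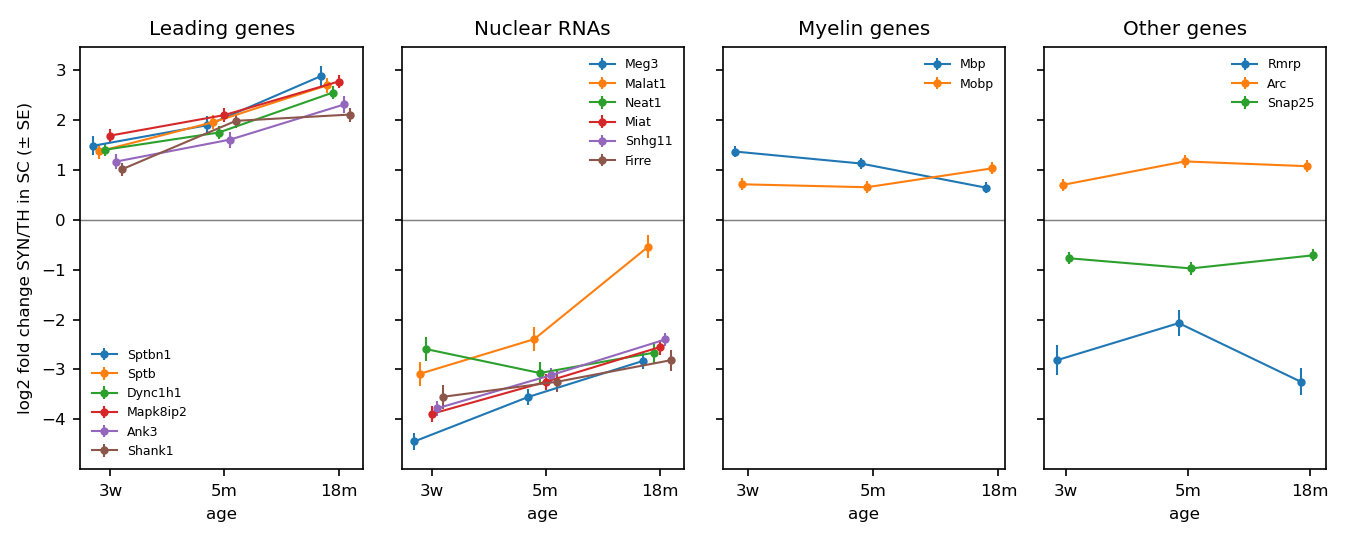
Fitted log2 fold change of SYN against TH in SC at 3w, 5m and 18m (error bars, SE; 4 mice per age) for spectrins and other leading genes, nuclear RNAs, myelin genes and Rmrp, Arc and Snap25. Lines join the ages of 1 gene, and the mice differ between ages.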

How the data were processed

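RNA-seq libraries were made from TH and SYN of male C57BL/6JRj cortex, as SC pellets and as input, after ribosomal RNA depletion with a directional kit, and sequenced single-end. Per the methods and the submitters' processing notes (bcl2fastq 2.20.0.422, TopHat2 2.1, featureCounts, GRCm38), reads were aligned and the authors deposited raw counts per gene, unnormalized, with strand not used in counting, so overlapping genes and near-identical copies are uncertain. The table held 48526 gene identifiers, of which 48144 were in GENCODE M21 and the rest held 0.0596% of counts. No deposited column was left unmapped.

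Samples were grouped by label, and SYN and TH of a mouse number come from the same animal. Deviations from the group means correlated between SYN and TH of 1 mouse at 0.3252, -0.036, 0.3111 and -0.1884 in mice 195 to 198. Genes passing edgeR's filter on low counts (edgeR 4.0.16, R 4.3.3) were fitted over 24 SC libraries by quasi-likelihood with TMM scaling, a term for each mouse and a SYN term per age, with Benjamini-Hochberg adjusted p under 0.05. Input was fitted likewise, and the excess of SC over input as an interaction over 48 libraries. SE was derived from the fold change and its F statistic. CPM are TMM-scaled, and log2 ratios per mouse used a prior count of 2. Depth was 5341263 to 18590040 counts per library at 18m. The p-values rest on a spread estimated over the 24 SC libraries of all ages, so they do not measure that of the 4 mice at 18m alone. Fitted with only the 8 libraries at 18m, 9820 of 16102 genes were called. Shares of counts were tested by exact two-sided sign-flip permutation over mice. Alternatives were DESeq2 1.42.0, other scalings, filters, thinning, a GC and length correction, no block, and mice left out. The procedure was tested on simulated counts: of 200 genes changed among 15992, 187 were recovered in the comparison of SYN with TH at 18m, where 12 unchanged genes were called, and 132 in the difference between 18m and 5m, where 1 was. The simulation changed few genes, by the same size in both directions, and held no pairs of SYN libraries and no GC trend. It cannot show how the calls behave where most genes differ or where those pairs matter.

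Genes were named by rule: the 15 highest and 15 lowest with adjusted p under 0.05, 100 or more counts on average on the higher side, no overlap between groups and an informative symbol; the first member and up to 3 called members per direction of each list; up to 5 per direction of the other comparisons; and 6 assay genes. Further list members were named after their values were seen. Members and lists were chosen with earlier results of these data known, and some lists share genes. Certain genes and sequences are not reported here.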

Additional observations from a re-analysis of the deposited data

Results flagged for a closer look

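Among 118 groups of 4 libraries examined, 5 held a value far from the other 3, where about 1 in 20 groups does so by chance. The astrocyte marker share was 3.96% of counts in the SYN library of mouse 198, above the other SYN libraries, and Dync1h1 was at 3479 CPM in that library, below the others. Meg3 was at 154 CPM in the SYN library of mouse 195, below the others. In the TH library of the same mouse Arc was low at 36.5 CPM, while Ldhb (495 CPM) was high.

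The SYN to TH ratio differed between 18m and 3w in 1066 genes by the interaction test. Among the genes described, the difference of log2 fold changes was above 0 for Ank3 (1.15 ± 0.22), Cd200r3 (2.70 ± 0.38), Dync1h1 (1.15 ± 0.17), Fcgr2b (2.45 ± 0.42), Malat1 (2.55 ± 0.32), Mapk8ip2 (1.08 ± 0.19), Meg3 (1.61 ± 0.21), Shank1 (1.10 ± 0.19) and Sptbn1 (1.40 ± 0.26) (edgeR, ± SE).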

How the results depend on the processing

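The count of genes called between SYN and TH in SC at 18m stayed within 1.5 times of 10178 under every alternative run, at 8659 to 9651 with 1 mouse left out. Without the replicate block, 10321 genes were called (4974 higher and 5347 lower), and Eif2b4, Malat1, Ndufs7 and Rn7s1 lost and Neto1 gained a call. Between 18m and 5m, 405 genes were called with DESeq2, 969 with no filter on low counts, 632 without mice 196 and 197, 0 without mice 195 and 198, and 0 to 2 with 1 mouse left out. Between 18m and 3w the count was 549 with thinned libraries, 1902 with no filter, 302 without mice 195 and 198, and 352 to 778 with 1 mouse left out. For SC beyond input it was 1701 without mice 196 and 197 and 2282 to 4687 with 1 mouse left out. The cause of these moves was not tested. The share of counts in nuclear protein-coding genes was 1.29 percentage points higher in SYN than in TH instead of 0.551 once mitochondrially encoded genes were left out.

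Library-size scaling turned the medians of the interneuron (-0.0307), myelin (-0.20), choroid plexus and ependyma (-0.0227), neuron (-0.27), respiratory chain (-0.35) and small nucleolar RNA host (-0.38) lists, and the values of Dlg4 (-0.0004), Mirg (-0.0226), Neto1 (-0.31), Unc13a (-0.12), Vip (-0.0307) and, in input, Snap25 (-0.56). Without mice 196 and 197 the medians of choroid plexus (-0.11), myelin (-0.0508) and small nucleolar RNA host (-0.11) lists turned. Calls lost in SC with 1 mouse left out were Eif2b4, Gas5, Malat1, Mirg, Ndufs7, Rn7s1, Srp14, Srp68, Tbr1 and Vamp2 (mouse 195), Birc2, Eif2b4, Lama5, Malat1, Mirg, Snhg1, Snhg20, Srp14, Srp9 and Vamp2 (196), Birc2, Fdps, Lama5, Malat1, Mirg, Rn7s1, Srp14, Srp9 and Vamp2 (197), and Fdps, Mirg, Ndufs7, Snhg1, Srp14 and Tbr1 (198). With libraries thinned to the smallest total, 14271 genes instead of 16630 had enough counts to be tested.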
